A study of Mus musculus with 6 samples.

Results

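The genes described here carry names ending in Rik, the mark of a cDNA clone from the RIKEN collection of mouse full-length transcripts that was catalogued before the gene's function was known. They are the 129 such genes whose mean over the 6 deposited count columns was at least 300, out of 1109 names of this form and 19162 rows in the table. RNA was sequenced from bone marrow cells of C57BL/6J mice. In the KCl group 34.7 mM of potassium chloride was added to the medium, and the control group had none, while both received GM-CSF at 40 ng/mL, which expands myeloid cells, over a culture of 4 days. Each group had 3 libraries, numbered 1, 2 and 4, with totals of 17814232 to 18933948 counts in KCl and 14118724 to 21694831 in control. The labels call these cultures bone marrow-derived myeloid-derived suppressor cells and do not say whether the replicates came from separate mice or cultures, so p-values reflect variation among these libraries alone, possibly of technical origin. Added KCl also raises osmolality, and no culture with another salt was analysed here.

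Clone names of this kind were given by mouse transcriptome sequencing projects, in which full-length cDNAs were read from many tissues and annotated by their open reading frames. Many of these genes have since received a proper symbol, and others turned out to be long non-coding RNAs, which act as RNA or serve as precursors of small RNAs in their introns. A clone name left in a table therefore says more about the age of the annotation than about the gene.

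All 129 genes had counts in the tested range and passed the filter on low values. The table describes 128 of them only by the clone name, and 1, 4930533O14Rik, as a dipeptidyl peptidase, which is Dpp3. By position, RefSeq annotates 113 as protein-coding and 16 as non-coding, and 52 have a current symbol that replaces the clone name (48 coding and 4 non-coding genes). GENCODE classes 111 as protein-coding, and the genes lie on 20 chromosomes, 4 of them on X. The genes just above the minimum were Zfas1 (1500012F01Rik), 1700020L24Rik and 5730455P16Rik with mean counts of 305.2, 310.0 and 315.8. Just below it were A830080D01Rik, 9430016H08Rik and 1190002N15Rik with 297.7, 297.5 and 295.3.

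In these bulk cultures fewer cells of a type and less RNA per cell cannot be told apart. Myeloid markers were abundant in both groups, with 10 of 10 detected, and summed to 14871 to 18295 CPM (counts scaled to library size) in KCl and 9954 to 12043 in control. With all 6 libraries, 4 of 12 neutrophil and granulocyte markers were called higher in KCl. So were 4 of 8 monocyte, 3 of 9 macrophage and 4 of 10 myeloid markers, while 5 of 8 eosinophil and 5 of 10 dendritic cell markers were called lower. Of all tested genes 12.4% were called higher and 10.5% lower. The eosinophil markers summed to 961 to 1117 CPM in KCl and 2351 to 2582 in control. Lymphocyte markers summed to 13.2 to 19.2 CPM in KCl and 11.1 to 14.5 in control, with Cd3e, Klrb1c and Trac at a mean count under 10. The part of these shifts in the results below was not tested.

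The deposited counts of KCl 4 and control 4 depended on those of the other libraries. Over the 129 genes, the log2 ratio of the mean CPM of this pair to the mean of the other libraries had an SD of 0.0104, against 0.0521 from counting noise alone. Among the 14 other pairs it was 0.144 to 0.291. The labels and processing notes name no step with this effect. A test over all 6 libraries may thus give p-values that are too small. The count of calls among the 129 genes and the main genes are given with and without replicate 4. Other counts of calls use all 6 libraries unless stated.

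Sequences are shown first for the microRNAs that lie inside the genes that rose most, because these short RNAs are the best known products of their loci. F630028O10Rik, a non-coding gene at chrX:96239926-96243636 on the plus strand (GENCODE M21, GRCm38), holds miR-223, a myeloid microRNA that is abundant in neutrophils and restrains the granulocyte lineage in mice. Aopep (2010111I01Rik), which encodes aminopeptidase O, at chr13:62964893-63326096 on the plus strand, holds the cluster of miR-23b, miR-27b and miR-24-1. Mature sequences are from RefSeq (GRCm38.p6), capitals mark the seed (bases 2 to 8), and no seed is shared between the 4 sequences shown.
miR-223-5p: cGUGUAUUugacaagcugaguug
miR-223-3p: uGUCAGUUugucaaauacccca
miR-27b-3p: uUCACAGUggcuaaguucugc
miR-24-3p: uGGCUCAGuucagcaggaacag

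Small nucleolar RNAs (snoRNAs), which guide the chemical modification of ribosomal RNA and are cut out of introns, lie inside each of the 3 non-coding genes that fell. One is shown for each, from the GENCODE M21 transcripts, with the letters TGATGA and CTGA in capitals, which are those of the C and D boxes that define this family. Snord12 lies in Zfas1 (chr2:167065276-167065365, plus strand), Snord65 in 2410006H16Rik (chr11:62604515-62604586, plus strand) and Snord52 in 1110038B12Rik (chr17:34950952-34951017, minus strand).
Snord12: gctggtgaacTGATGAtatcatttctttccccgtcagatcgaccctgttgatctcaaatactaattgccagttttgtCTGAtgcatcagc
Snord65: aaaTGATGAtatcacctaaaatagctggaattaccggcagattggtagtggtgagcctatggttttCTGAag
Snord52: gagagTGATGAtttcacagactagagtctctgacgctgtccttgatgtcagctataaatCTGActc

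The comparison asked which of these genes differed between cells grown with and without added potassium. By the quasi-likelihood test of edgeR, with p-values adjusted over 13326 genes by the Benjamini-Hochberg method, 28 of the 129 were called at an adjusted p under 0.05, 14 higher and 14 lower in KCl. That is 21.7%, near the 22.9% of all tested genes that were called, and near the 23.5% found among the 8231 genes that reach the same minimum count. Here 10.9% were called in each direction, against 12.4% higher and 10.5% lower over all tested genes, and 13.2% higher and 10.4% lower over those at the same minimum. The median log2 fold change was 0.0641 over the RIKEN-named genes and -0.0045 over all tested genes. Without replicate 4, edgeR called 0 of the 129, and 0.458% of all tested genes. In that comparison 43 of the 129 had an unadjusted p under 0.05, 27 of them higher in KCl, and 29.8% of all tested genes did. Each of the 28 called genes had the same sign in that comparison, with adjusted p of 0.0522 to 0.210.

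Changes were small. Of the 28 called genes 7 differed by at least 1.5-fold and 0 by at least 2-fold, with log2 fold changes of 0.28 to 0.88 for those higher in KCl and -0.86 to -0.25 for those lower. The libraries of the groups did not overlap in 28 of the 28, nor in 44 of all 129, which is 34.1% against 38.5% of all tested genes. Of the 129 genes, 27 were apart with KCl higher and 17 with KCl lower. Of all 13326 tested genes, 2688 (20.2%) were apart with KCl higher and 2448 (18.4%) with KCl lower. The summed counts of the 129 genes made up 0.759% to 0.766% of each KCl library and 0.700% to 0.711% of each control library. A further 47 genes that were not called had fitted changes within 0.1 of 0 on the log2 scale.

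**Figure D1:**
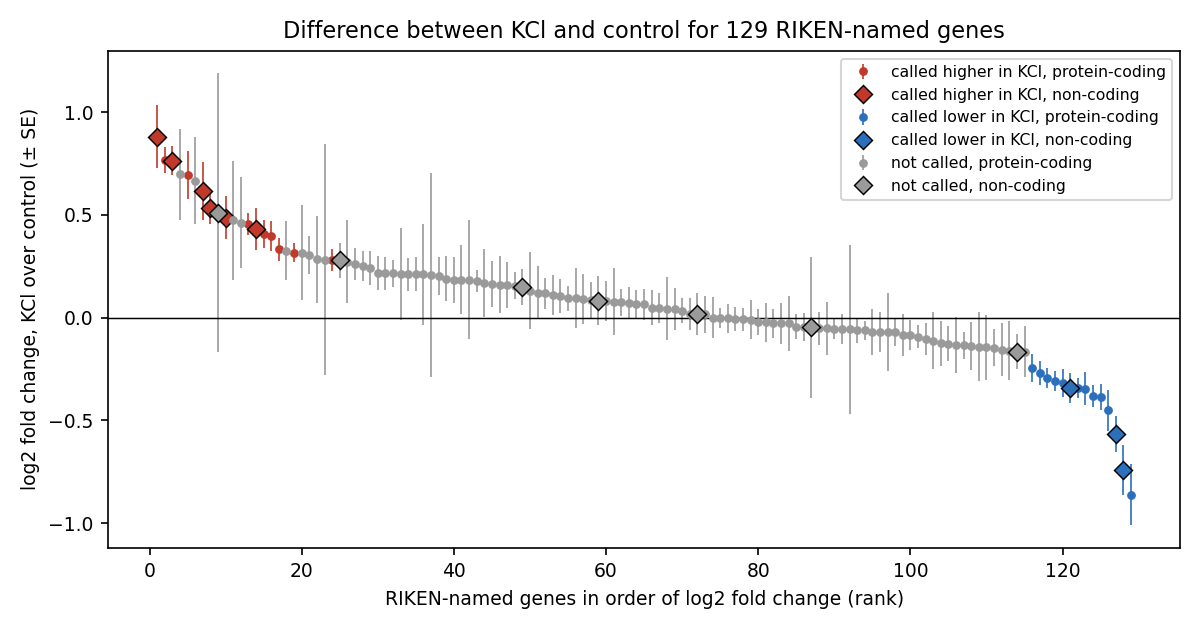
Log2 fold change of KCl over control (vertical axis) for the 129 RIKEN-named genes in rank order (horizontal axis), with standard errors as bars; red genes were called higher in KCl, blue genes lower and grey genes were not called, and diamonds are non-coding genes. The 28 called genes lie toward both ends, from 0.88 for F630028O10Rik to -0.86 for 3830406C13Rik. At the upper end uncalled genes, which reach 0.70, lie among the called ones, and at the lower end they reach -0.17.

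A larger share of the non-coding genes than of the coding ones was called. Of the 16 non-coding genes 9 were called (6 higher and 3 lower, 56.2%), and of the 113 coding genes 19 (8 higher and 11 lower, 16.8%). Coding genes that still lack a symbol were called in 14 of 65 cases (21.5%), and those with a current symbol in 5 of 48 (10.4%). Of all GENCODE protein-coding genes at the same minimum 23.3% were called. Among 41 genes of GENCODE's long non-coding types without a RIKEN name and at the same minimum, 14 were called, which is 34.1%. By the same GENCODE types, 15 RIKEN-named genes are long non-coding and 53.3% of them were called. These shares are descriptions of small groups and carry no test. By unadjusted p without replicate 4, 11 of the 16 non-coding and 32 of the 113 coding genes were under 0.05.

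**Figure D2:**
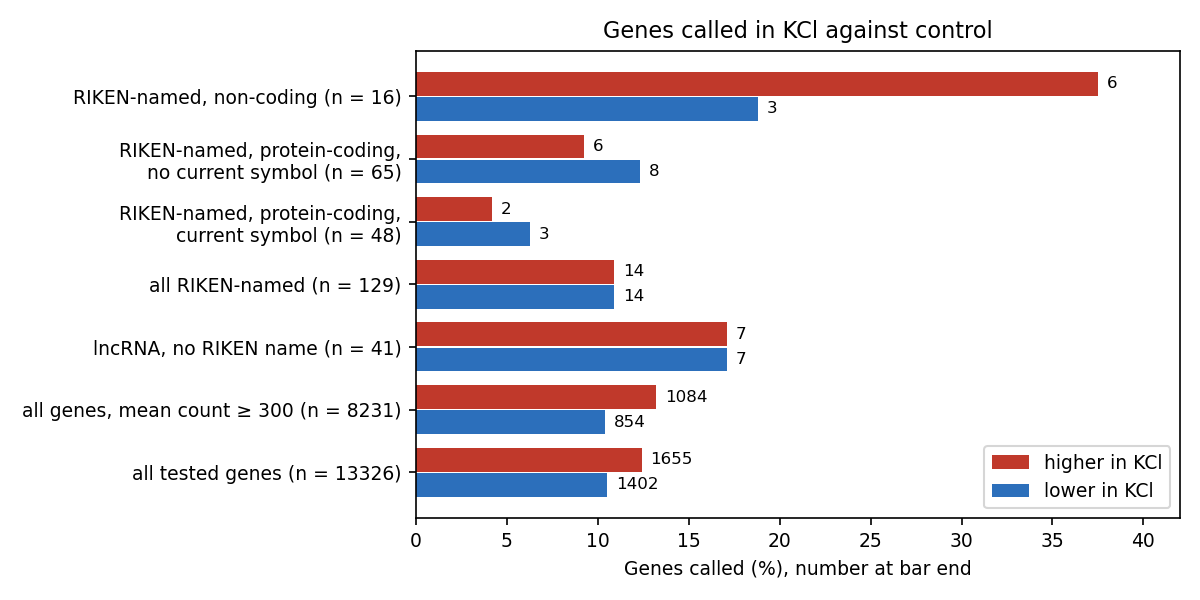
Percent of genes called higher (red) and lower (blue) in KCl (horizontal axis) in 7 groups of genes (vertical axis), with the number of genes at the end of each bar. Non-coding RIKEN-named genes have the longest bars, 37.5% higher and 18.8% lower, and the RIKEN-named genes as a whole lie close to all tested genes.

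F630028O10Rik, the host of miR-223, had 322, 460.3 and 363 CPM in the KCl libraries, against 181, 229 and 212 CPM in the control libraries. Every KCl library was above every control library, and KCl 2 was the highest. The log2 fold change was 0.88 ± 0.15 (SE, n = 3 per group, edgeR adjusted p = 0.0110). Without replicate 4 it was 0.93, with an adjusted p of 0.0895. It is a strongly expressed gene also per length, at 62.7 ± 10.01 FPKM in KCl and 34.7 ± 4.04 FPKM in control (SD, n = 3 each). The counts measure the long host transcript and not mature miR-223. Neutrophil and granulocyte markers, among whose cells miR-223 is abundant, summed to 18701 to 25308 CPM in KCl and 15375 to 16862 in control, and their part in this difference was not tested.

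Its promoter, from RefSeq (chrX:96239676-96239975, plus strand, GRCm38.p6), is shown because it belongs to the gene that rose most. Capitals mark TTCCTC, the reverse complement of GAGGAA, which is the core read by PU.1, a master regulator of myeloid cells.
F630028O10Rik promoter: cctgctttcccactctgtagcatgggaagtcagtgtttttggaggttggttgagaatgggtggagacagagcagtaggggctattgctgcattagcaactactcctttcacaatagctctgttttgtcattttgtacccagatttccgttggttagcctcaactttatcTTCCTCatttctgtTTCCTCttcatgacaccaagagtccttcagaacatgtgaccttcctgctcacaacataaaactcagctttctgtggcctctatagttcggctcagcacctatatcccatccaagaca

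Of the 129 genes, 109 have promoter entries in that table, 126 in all, since some genes have more than 1 start. GAGGAA on either strand was in 34.1% of the 126 and in 28.3% of all 32851 promoters of the same length. It was in 5 of 14 promoters of the genes called higher and in 7 of 16 of those called lower. TCACGTG, an E-box form read by MiT/TFE and USF factors, was in 11.1% of the 126 and 3.77% of all. Among called genes it was in the promoters of A930007I19Rik and C330007P06Rik, called higher, and of 1110059E24Rik and A430005L14Rik, called lower. The TonE consensus of the osmotic stress factor NFAT5 was in 3 of the 126, or 2.38%, against 4.96% of all, and in none of the promoters of called genes. TTCNNNGAA, the form read by STAT factors, was in 11.1% of the 126 and 8.3% of all. It was in 0 of 14 promoters of the genes called higher and in 3 of 16 (18.8%) of those called lower. TGACNNNGC, the core of the antioxidant response element, was in 11.1% of the 126 and 12.4% of all. It was in 3 of 14 promoters of the genes called higher (21.4%) and 5 of 16 of those called lower (31.2%). These shares of few promoters were not tested. Motifs were searched on both strands, and a match is only a match of letters.

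Aopep had 41.4, 43.6 and 39.8 CPM in KCl, against 23.7, 24.1 and 25.6 CPM in control. The replicates lay close together and the groups were well apart, but Aopep is among the genes named for the smallest p in their class. Its log2 fold change was 0.77 ± 0.06 (SE, n = 3 per group, edgeR adjusted p = 0.00243), and without replicate 4 it was 0.83 with an adjusted p of 0.0522. Fancc, a DNA repair gene that overlaps Aopep on the other strand, had a log2 fold change of 0.03 ± 0.07 and was not called.

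F730016J06Rik is a long intergenic non-coding RNA at chr2:28095477-28127731 on the plus strand with no assigned function in the tables used here. It had 86.2, 92.7 and 83.6 CPM in KCl, against 48.1, 52.7 and 53.9 CPM in control, again with no overlap. The log2 fold change was 0.76 ± 0.07 (SE, n = 3 per group, edgeR adjusted p = 0.00299), and 0.83 with an adjusted p of 0.0522 without replicate 4.

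Of the other non-coding genes that rose, 2310015A10Rik had 22.1, 23.03 and 17.6 CPM in KCl and 12.8, 12.6 and 15.7 CPM in control. Its lowest KCl library, KCl 4, was not far above its highest control library, control 4. The log2 fold change was 0.62 ± 0.14 with an edgeR adjusted p of 0.0248, and it was lost in 4 of the 6 comparisons that leave out a library. D930048N14Rik, which RefSeq lists as non-coding and GENCODE as protein-coding, had 27.7, 24.3 and 24.7 CPM in KCl and 17.0, 18.0 and 18.2 CPM in control, a log2 fold change of 0.53 ± 0.08. It starts 112 bases from N4bp3 on the other strand, whose log2 fold change was -0.01 ± 0.05 and which was not called. 2610507I01Rik and A930007I19Rik had smaller log2 fold changes of 0.49 ± 0.10 and 0.43 ± 0.10, and both calls were lost without KCl 4, control 1 or control 4, and that of A930007I19Rik also without KCl 2.

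A930007I19Rik lies at chr19:29464750-29523159 on the minus strand, across Pdcd1lg2 (the checkpoint ligand PD-L2) and Ric1 on the plus strand. How strand was treated in counting is not stated, so reads of overlapping genes cannot be told apart. Pdcd1lg2 had a log2 fold change of -0.48 ± 0.23 and Ric1 of 0.19 ± 0.12, and neither was called. Of the 129 genes 50 overlap another listed gene and 23 overlap one with a mean count of at least 300. In 34 pairs, which include 3110082I17Rik with C130050O18Rik from each side, the tested neighbour, overlapping or starting within 1 kb, had such a mean count. The RIKEN-named gene was called in 10 of the 34, and over all tested genes 22.9% were called. In 2 of the 10 the neighbour was called too, each time in the opposite direction. These were Zfas1 with Znfx1 and 1110059E24Rik with Abhd17b.

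**Figure D3:**
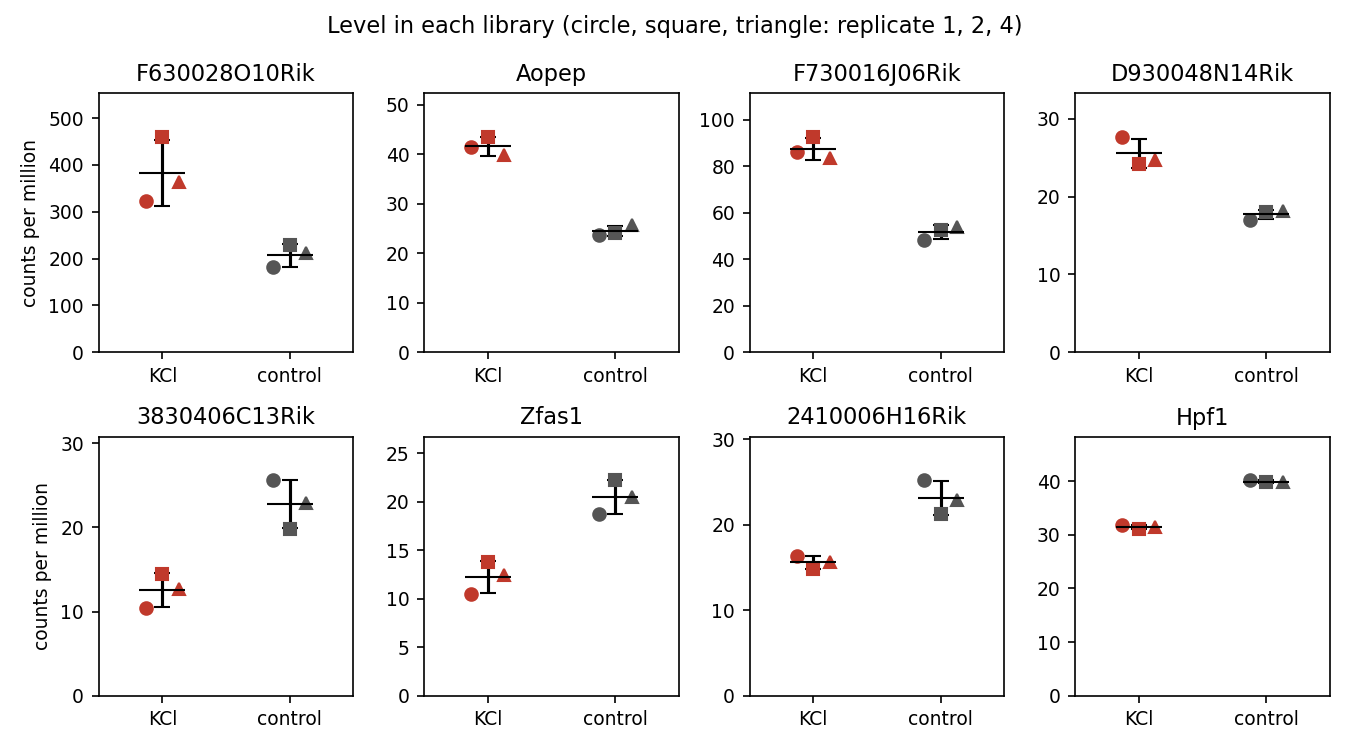
Level in CPM, counts scaled to library size (vertical axes, each from 0) of 8 RIKEN-named genes in the KCl (red, left) and control (grey, right) libraries, where symbols mark replicates 1, 2 and 4 and bars the mean and SD of 3 libraries. In the upper row every KCl library lies above every control library, and in the lower row every KCl library lies below.

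Of the 8 coding genes that rose, Aopep had the largest change. 2510009E07Rik had 34.1, 34.9 and 33.0 CPM in KCl, against 23.9, 17.6 and 21.6 CPM in control, a log2 fold change of 0.69 ± 0.12 (SE over 3 libraries per group, edgeR adjusted p = 0.00992). Its KCl libraries were nearly level and its control libraries were spread wider. 1700017B05Rik had 112, 115 and 108 CPM in KCl, against 77.5, 83.0 and 83.7 CPM in control, with a log2 fold change of 0.46 ± 0.05. C130050O18Rik, with a log2 fold change of 0.41 ± 0.07, overlaps another RIKEN-named gene, 3110082I17Rik, which had -0.05 ± 0.13 and was not called. Khdc4 (2810403A07Rik), an RNA-binding splicing factor, had 58.2, 59.9 and 56.3 CPM in KCl and 44.4, 47.1 and 47.1 CPM in control, a log2 fold change of 0.33 ± 0.05. C330007P06Rik, 2510039O18Rik and 1700025G04Rik had log2 fold changes of 0.40 ± 0.07, 0.32 ± 0.05 and 0.28 ± 0.05. The calls of C330007P06Rik and 1700025G04Rik were lost without control 4.

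Among the genes that fell, 3830406C13Rik had the largest change. It had 10.5, 14.5 and 12.7 CPM in KCl, against 25.6, 19.8 and 22.9 CPM in control, and the groups did not overlap although both were spread. The log2 fold change was -0.86 ± 0.15 (SE, n = 3 per group, edgeR adjusted p = 0.0110), and -0.87 with an adjusted p of 0.0994 without replicate 4. The call held when any 1 library was left out, but not with a replicate block. The tables used here give this coding gene no symbol or function.

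Zfas1, a long non-coding RNA that hosts snoRNAs of the Snord12 type, had 10.5, 13.8 and 12.4 CPM in KCl, against 18.8, 22.2 and 20.5 CPM in control. Its KCl libraries were all below its control libraries. The log2 fold change was -0.74 ± 0.12 (SE, n = 3 per group, edgeR adjusted p = 0.00939), and -0.76 with an adjusted p of 0.0947 without replicate 4. Znfx1, a helicase gene of antiviral defence with a mean count of 2446, overlaps Zfas1 on the other strand and starts 81 bases away. Strand treatment in counting is not stated, so reads of these overlapping genes cannot be told apart. Znfx1 went the other way, with 149, 143 and 141 CPM in KCl and 122, 117 and 122 CPM in control. Its log2 fold change was 0.26 ± 0.05 (edgeR adjusted p = 0.0119).

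2410006H16Rik, host of Snord49a, Snord49b and Snord65, had 16.4, 14.9 and 15.6 CPM in KCl, against 25.2, 21.2 and 22.9 CPM in control. The log2 fold change was -0.57 ± 0.09 (SE, n = 3 per group, edgeR adjusted p = 0.00787). 1110038B12Rik, host of Snord52, had 21.2, 19.1 and 19.8 CPM in KCl, against 23.9, 26.9 and 25.4 CPM in control, a log2 fold change of -0.34 ± 0.07. This last call is the weakest of the 3, with an adjusted p of 0.0216 that was lost when KCl 2, KCl 4, control 2 or control 4 was left out. Without replicate 4 the log2 fold changes were -0.57 and -0.34, with adjusted p of 0.0918 for 2410006H16Rik and 0.149 for 1110038B12Rik.

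These 3 genes were then set beside all genes of GENCODE's long non-coding types that hold a snoRNA and have a mean count of at least 300, a list drawn up after the values were seen. It holds these 3 genes and 7 others. Of the 7 others 4 were called lower and 7 had a log2 fold change below 0. Of all tested genes at the same minimum count 10.4% were called lower, and their median log2 fold change was -0.0014. Of the 56 of long non-coding types 17.9% were called lower, but these include the 10 hosts, which make up 7 of the 10 lower calls. All 10 hosts were below 0 under every scaling and with each library left out, but the 3 RIKEN-named hosts were chosen for having fallen. Gas5, a host of many snoRNAs, had 53.5, 45.0 and 49.7 CPM in KCl and 72.1, 78.1 and 74.4 CPM in control, a log2 fold change of -0.60 ± 0.08. Snhg1 had a log2 fold change of -0.39 ± 0.07 and Gm11974 of -0.30 ± 0.06. Cct6a, which GENCODE M21 lists under a non-coding type although it is known for its chaperonin protein, had -0.40 ± 0.05. Snhg5, AI506816 and Snhg17 were not called, at -0.17 ± 0.07, -0.13 ± 0.15 and -0.08 ± 0.08. Without KCl 4, or without control 4, 4 of the 10 were called lower, against 7 with all libraries. Without replicate 4, 0 of the 10 were called by edgeR and 8 had an unadjusted p under 0.05. Coding RIKEN-named genes that hold snoRNAs did not share this direction, since Khdc4 rose, and 2410002F23Rik and Vps35l (9030624J02Rik) had log2 fold changes of 0.46 ± 0.22 and 0.08 ± 0.10 and were not called.

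**Figure D4:**
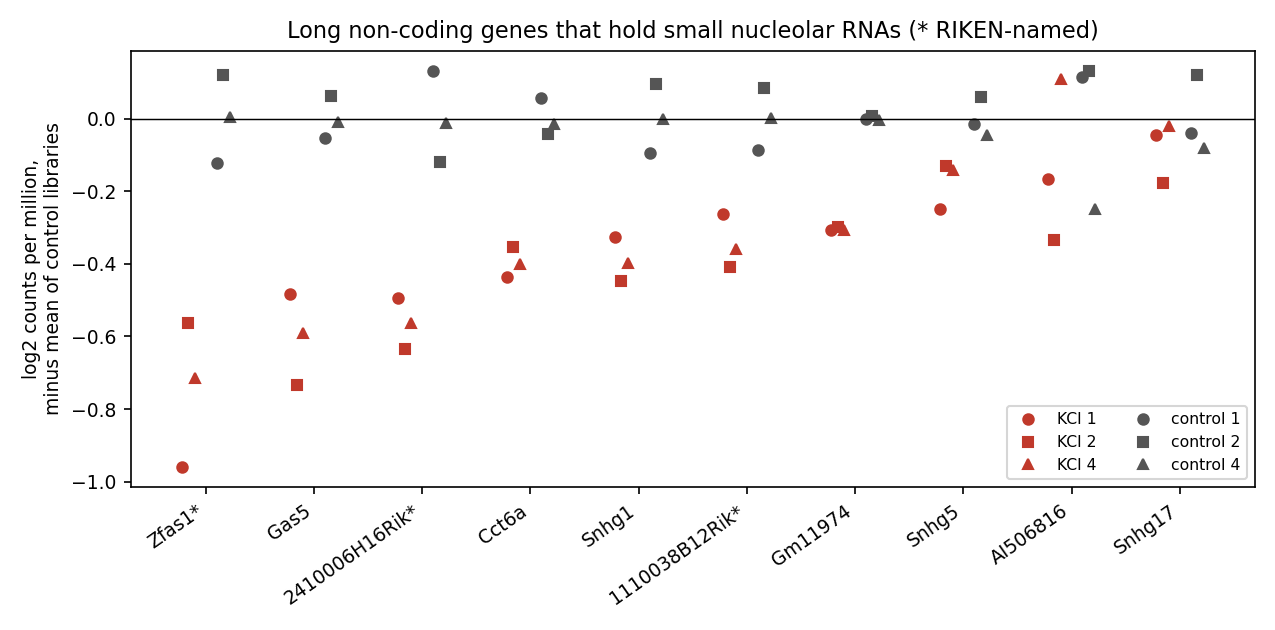
Log2 CPM minus the mean of the control libraries (vertical axis) for the 10 genes of long non-coding types that hold snoRNAs (horizontal axis), with KCl libraries in red to the left of control libraries in grey and symbols marking replicates 1, 2 and 4. The KCl libraries lie below the control libraries in 8 genes and overlap them in AI506816 and Snhg17.

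The start regions of the 3 RIKEN-named hosts are shown because snoRNA host transcripts are known for starting with a C followed by pyrimidines, the 5′ terminal oligopyrimidine form of growth-regulated RNAs. Each is the 10 bases before and the 30 from the RefSeq start (GRCm38.p6), with the first 4 transcribed bases in capitals. The regions are chr2:167062924-167062963 (plus strand), chr11:62602867-62602906 (plus strand) and chr17:34952439-34952478 (minus strand).
Zfas1: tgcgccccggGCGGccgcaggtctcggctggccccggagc
2410006H16Rik: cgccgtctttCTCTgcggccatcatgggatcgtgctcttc
1110038B12Rik: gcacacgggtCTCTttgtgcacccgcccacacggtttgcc

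At the annotated start, a C followed by 3 pyrimidines was present in 2410006H16Rik and in 1 of the 2 entries of 1110038B12Rik, and the Zfas1 entry began otherwise. It was in 3.76% of all promoter entries, in 7 of the 126 of RIKEN-named genes, in 3 of 16 entries of those called lower (the third is Rtraf) and in none of the 14 of those called higher. Annotated starts can lie some bases from the starts used in these cells, which were not measured.

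The remaining coding genes that fell include several with known roles. Rtraf (2700060E02Rik), a subunit of the tRNA ligase complex, had 72.2, 61.0 and 65.3 CPM in KCl, against 99.7, 80.6 and 91.2 CPM in control, a log2 fold change of -0.45 ± 0.10. Its groups did not overlap, and the call was lost in 4 of the 6 comparisons that leave out a library. Hpf1 (2700029M09Rik), the partner that directs PARP1 to modify serine at DNA breaks, had 31.8, 31.1 and 31.4 CPM in KCl, against 40.2, 39.8 and 39.8 CPM in control. Its libraries lay close together within each group, with a log2 fold change of -0.34 ± 0.05 (SE over 3 libraries per group, edgeR adjusted p = 0.00640). Hpf1 is among the genes named for the smallest p in their class, a choice that favours a small spread. The closeness of its libraries is thus not a separate result. Erg28 (0610007P14Rik), an endoplasmic reticulum protein that holds sterol synthesis enzymes together, had 33.6, 34.3 and 33.5 CPM in KCl, against 45.1, 39.1 and 42.2 CPM in control, a log2 fold change of -0.32 ± 0.07. That call was lost in 4 of the 6 such comparisons.

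The other genes that fell have no symbol in the tables used here. 9430015G10Rik had a log2 fold change of -0.39 ± 0.06 and 2810004N23Rik one of -0.38 ± 0.05. The second overlaps Gnpat, a peroxisomal enzyme of ether lipid synthesis, which had -0.07 ± 0.09 and was not called. 1110059E24Rik had -0.35 ± 0.08, 6030458C11Rik -0.31 ± 0.05 and 1810030O07Rik -0.29 ± 0.05. 1110004F10Rik had -0.27 ± 0.06, and its call was lost without KCl 4, control 1 or control 4. The call of 1110059E24Rik held only without control 2. A430005L14Rik had -0.25 ± 0.07 with the adjusted p closest to the threshold, 0.0454. DESeq2 did not call it, and it held only without KCl 2.

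Genes that could be placed in a known process were grouped after the values were seen. Not all have a current symbol, since B430306N03Rik and A530064D06Rik do not. The groups are small, and with 22.9% of all tested genes called, a count of 0 or 1 in them is no result about the group. Of 8 genes of endosomes, lysosomes and autophagy edgeR called 0, with 1 at an unadjusted p under 0.05, and DESeq2 and limma-voom also called 0. Their log2 fold changes ran from 0.06 to 0.18. Washc5 (E430025E21Rik), a subunit of the WASH complex that sorts endosomal cargo, had 179, 191.6 and 179 CPM in KCl and 155, 167 and 164 CPM in control, a log2 fold change of 0.18 ± 0.05 (edgeR adjusted p = 0.0622). Rmc1 (3110002H16Rik), Rubcn (1700021K19Rik), C9orf72 (3110043O21Rik), Washc4 (A230046K03Rik), Relch (2310035C23Rik), Bmt2 (B630005N14Rik) and Vps35l make up the rest.

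Of 7 mitochondrial genes edgeR called 0, against 22.9% of all tested genes, with 1 at an unadjusted p under 0.05, and DESeq2 and limma-voom also called 0. That gene was Card19 (1110007C09Rik), a mitochondrial protein with a caspase recruitment domain, with 64.9, 70.8 and 65.5 CPM in KCl and 52.2, 60.2 and 56.8 CPM in control. Its groups did not overlap and its log2 fold change was 0.25 ± 0.07 (edgeR adjusted p = 0.0533). Micos13 (2410015M20Rik), a subunit of the complex that shapes cristae, had a log2 fold change of -0.03 ± 0.13, and Atp5mpl (2010107E04Rik), a small protein of ATP synthase, one of -0.17 ± 0.12.

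Of 9 genes of chromatin, DNA repair and growth only Hpf1 was called by edgeR, DESeq2 or limma-voom. Pclaf (2810417H13Rik), a partner of the replication clamp PCNA and a mark of dividing cells, had 149.6, 155 and 169.7 CPM in KCl and 164, 178 and 150.5 CPM in control. Its groups overlapped, and the log2 fold change was -0.05 ± 0.08. Of 5 genes of RNA processing Khdc4 rose, Rtraf fell, and Virma (1110037F02Rik), a subunit of the m6A writer, was level at -0.01 ± 0.05 with 114, 118 and 110.1 CPM in KCl and 118, 109 and 117 CPM in control. Of the peptidases, Aopep rose and Dpp3 had -0.05 ± 0.07. Of the sterol genes, Erg28 fell, and Spring1 (2410131K14Rik), which SREBP signalling needs, had -0.06 ± 0.07.

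Immune receptors of the cell surface included Vsir (4632428N05Rik), which encodes VISTA, a checkpoint of T cells carried by myeloid cells. Vsir had 198, 208 and 153 CPM in KCl, against 136, 165 and 197 CPM in control. KCl 4 and control 4 lay on the far sides of their groups, so the groups overlapped, and the log2 fold change was 0.17 ± 0.17 (edgeR adjusted p = 0.589). Without replicate 4 it was 0.43 with an adjusted p of 0.105. Ly6a2 (I830127L07Rik), of the LY6 family, had 248, 303 and 268 CPM in KCl and 226, 244 and 235 CPM in control. These libraries did not overlap, the log2 fold change was 0.22 ± 0.08, and the edgeR adjusted p of 0.117 missed the threshold. Its level per length was 238 ± 18.8 FPKM in KCl and 208 ± 7.57 FPKM in control (SD, n = 3 each), the highest of the 129 genes. GENCODE classes it as a pseudogene, and near-identical relatives may share its reads, so its value is uncertain. B430306N03Rik and A530064D06Rik, both near the TREM receptor genes, had log2 fold changes of 0.28 ± 0.21 and 0.21 ± 0.24. Of these 4 genes edgeR called 0, with 1 at an unadjusted p under 0.05, and DESeq2 and limma-voom also called 0.

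By counts the most abundant gene was 2610507B11Rik, with 331, 322 and 339 CPM in KCl and 339, 336 and 319 CPM in control. It was level between groups, with an SE of 0.05 on the log2 scale. 9530068E07Rik was also level, with 182, 209.9 and 195 CPM in KCl, 191, 209.9 and 197 CPM in control and a log2 fold change of -0.03 ± 0.07. 5031439G07Rik, which holds miR-1249, had 332, 208 and 277 CPM in KCl, against 209.8, 138 and 166 CPM in control. Both groups were spread, KCl 2 lay just below control 1, and the log2 fold change of 0.67 ± 0.21 was not called (edgeR adjusted p = 0.0728). Among the alternatives without a replicate block, it was called without KCl 2 and by DESeq2. Besides Card19, the uncalled genes nearest the threshold were 0610030E20Rik and 4933434E20Rik, with log2 fold changes of 0.26 ± 0.08 and 0.21 ± 0.06 and edgeR adjusted p of 0.0576 and 0.0603.

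Some of the genes varied more within a group than between groups. The SD of log2 CPM within a group had a median of 0.104 in KCl and 0.114 in control, and exceeded 0.4 in at least 1 group for 11 genes. In 7 of the 11 KCl 2 lay farthest from the mean of the KCl libraries. Chaserr (1810026B05Rik), a non-coding RNA that restrains the neighbouring chromatin remodeller gene Chd2 in mice, had 17.1, 45.6 and 10.6 CPM in KCl, against 8.57, 12.6 and 31.1 CPM in control. KCl 2 and control 4 were the high libraries, and the log2 fold change was 0.51 ± 0.68 (edgeR adjusted p = 0.664). Without replicate 4 it was 1.56, with an adjusted p of 0.132. Chd2 overlaps Chaserr on the same strand, had a mean count of 2326, and was not called, with a log2 fold change of 0.08 ± 0.07. How reads were divided between Chaserr and Chd2 is not known, so the spread of Chaserr is uncertain. 4930453N24Rik and 2610001J05Rik were high in the same libraries, with 36.7 and 75.2 CPM in KCl 2, and 25.1 and 53.1 CPM in control 4. Because the mean of KCl 4 and control 4 was nearly fixed by the other libraries, high values in KCl 2 and control 4 are not independent observations.

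2310022A10Rik and Selenoh (2700094K13Rik), a nucleolar selenoprotein, went the opposite way. 2310022A10Rik had 36.7, 14.6 and 42.9 CPM in KCl, against 40.5, 34.7 and 22.6 CPM in control, and Selenoh had 31.8, 14.9 and 29.4 CPM in KCl, against 22.4, 26.0 and 18.6 CPM in control. KCl 2 and control 4 were thus the lowest libraries of their groups in both, and these values too are tied by the dependence of replicate 4. Selenoh is overlapped on the same strand by Gm28635, which had a mean count of 610.2 and was not among the tested genes. How reads were divided between Selenoh and Gm28635 is not known, so the spread of Selenoh is uncertain. Oip5os1 (1700020I14Rik, known as Cyrano and for binding miR-7) and Norad (2900097C17Rik, which binds Pumilio proteins) are the best studied of the non-coding genes. Oip5os1 had 174, 186.5 and 156 CPM in KCl and 145, 153 and 169 CPM in control, and Norad had 34.3, 46.7 and 42.7 CPM in KCl and 39.4, 40.3 and 36.9 CPM in control. Their log2 fold changes were 0.15 ± 0.09 and 0.08 ± 0.12, their groups overlapped, and neither was called.

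**Figure D5:**
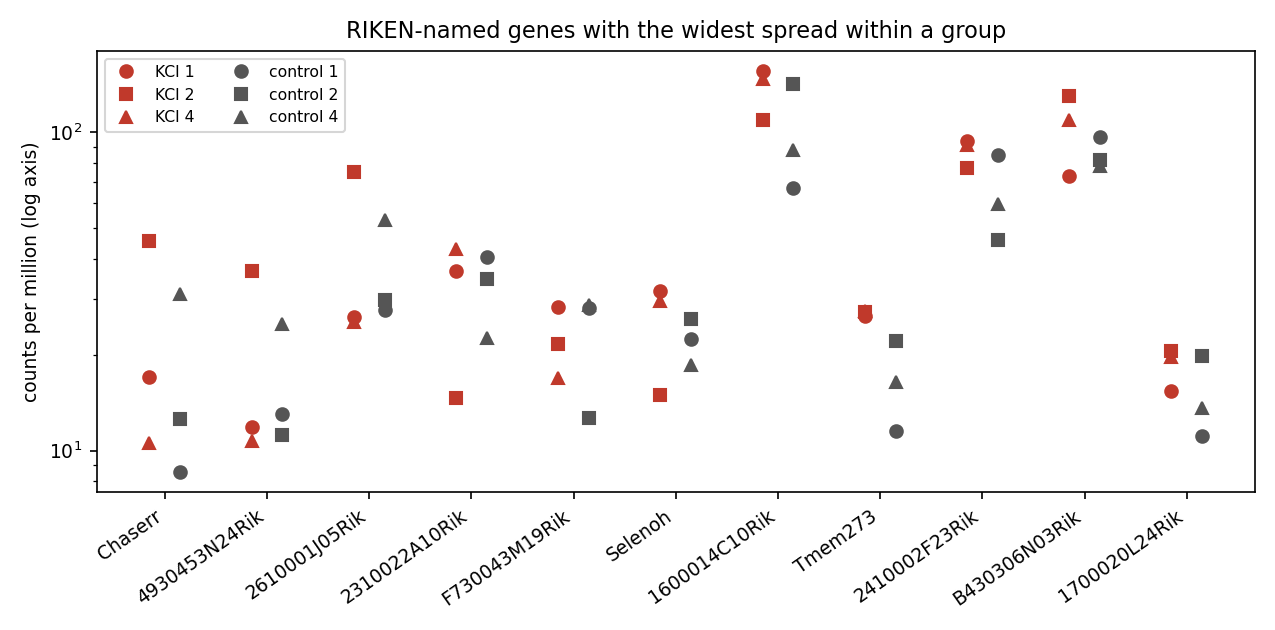
Level in CPM (vertical log axis) of the 11 RIKEN-named genes whose SD of log2 level exceeded 0.4 within a group (horizontal axis), with KCl libraries in red to the left of control libraries in grey and symbols marking replicates 1, 2 and 4. In Chaserr, 4930453N24Rik and 2610001J05Rik the highest libraries are KCl 2 and control 4, which are not independent because replicate 4 depends on the other libraries.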

How the data were processed

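RNA was measured in 3 KCl and 3 control libraries, grouped by sample title and treatment label. Trizol extraction and Illumina NovaSeq sequencing are given per the labels' protocols. The submitters' processing notes name build mm10 and the tools HISAT2 2.0.4, StringTie 1.3.3b and edgeR, with no roles, and which program counted reads, and with what strand setting, is not given in the sources used. The authors deposited whole-number read counts and FPKM values per gene and library. Counts were tested as deposited, and the deposited FPKM served only to describe levels per length.

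Counts were compared in R 4.3.3 with edgeR 4.0.16 (filterByExpr with a minimum count of 10 and a minimum total of 15, TMM scaling, robust quasi-likelihood test, 2-sided, threshold 0.05). CPM values are TMM-scaled, and standard errors were derived from the log2 fold change and its F statistic. The test was checked on simulated counts, drawn independently for each library. That check therefore does not cover the dependence of KCl 4 and control 4 on the other libraries. Alternatives were other scalings, no filter, a replicate block, 1 library or replicate 4 left out, and the tools DESeq2 1.42.0 and limma-voom (limma 3.58.1), and other minimum counts.

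The members and lists were chosen with earlier results of these data known. Genes named are the 10 called higher and 10 called lower with the largest changes, the 6 most abundant, the 2 with the smallest p in each annotation class, the 3 nearest the threshold, those at the minimum count and overlapping neighbours. Other genes, the role groups, the spread list and the snoRNA hosts were chosen after their values were seen. Because the table's descriptions only repeat the clone names, annotation came from RefSeq (GRCm38.p6) and GENCODE M21, matched by position for 129 of 129 genes.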

Additional observations from a re-analysis of the deposited data

How the results depend on the processing

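The set depends on the minimum mean count, since 241 genes pass at 100 and 42 at 1000, and 56 and 7 of them were called. These are 23.2% and 16.7%, against 22.9% of all tested genes. All 28 called genes kept their sign under every alternative. The 3 other scalings, no filter, DESeq2 and limma-voom gave 28 to 30 calls among the 129. Leaving out 1 library gave 18 to 30 calls among the 129, 10 to 18 higher and 8 to 12 lower, and 1439 to 2851 among all tested genes, against 3057 with all libraries. Without control 4 the counts were 18 and 1439, and without KCl 4 they were 20 and 1505, with 8 lower in each. Of the 28, 17 passed in all 6 of these comparisons. Without replicate 4 altogether, edgeR called 0 of the 129, 0 higher and 0 lower, and 62 of all tested genes. Among the uncalled genes, 9530068E07Rik ranged from -0.0833 (without KCl 2) to 0.0223 (without KCl 1), and 2610507B11Rik from -0.0478 (without replicate 4) to 0.0158 (without KCl 2), on both sides of 0. The cause was not tested.

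With the replicate number as a block, 17 of the 129 were called, 16 of them among the 28, with 11 higher and 6 lower, and 1678 of all tested genes. Of the 10 snoRNA hosts, 4 were called lower. The call of 3830406C13Rik was lost, with an adjusted p of 0.0577, and 5031439G07Rik was called, with an adjusted p of 0.0225. Same-numbered libraries correlated at 0.02, -0.06 and -0.75 in their deviations from the group means. These values cannot decide whether the numbers pair the samples, because KCl 4 and control 4 depended on the other libraries and so shaped the group means. With 3 libraries a group, counts near the minimum of 300 and differences under the median standard error of 0.09 on the log2 scale limit what can be seen.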

Other observations

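RIKEN-named genes below the minimum count were not described above. Of 385 that could be tested, 67 were called, 45 higher and 22 lower in KCl, which is 17.4%. Of all tested genes 22.9% were called, 12.4% higher and 10.5% lower. One of the 385, 1700028J19Rik, starts 27 bases from 2410002F23Rik on the other strand and had a log2 fold change of 1.32 ± 0.17, against 0.46 ± 0.22 for its neighbour. Genes named only by a Gm number, another mark of predicted mouse genes, had 28 of 98 called at the same minimum, 9 higher and 19 lower, with a median log2 fold change of -0.11. That is 28.6% called, 9.18% higher and 19.4% lower. Genes named by a sequence accession had 7 of 39 called, or 17.9%. Among all genes at the same minimum 23.5% were called, 13.2% higher and 10.4% lower. The differences between these groups of names were not tested.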
